A study of Mus musculus with 8 samples.

Results

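Messenger RNA of 10 genes that make, organize, cleave and bind the hyaluronan and versican matrix of the cardiac jelly was measured in the left and right heart fields of mouse embryos. The genes were *Has2*, *Ugdh*, *Vcan*, *Hapln1*, *Adamts1*, *Adamts9*, *Hyal1*, *Hyal2*, *Cd44* and *Hmmr*. They were taken by symbol from the 48526 genes of the count table, and 9 of the 10 were among the 9744 genes with enough reads to be tested. The exception was *Hyal1*. The rule used their names and no measured value, but the members were chosen with earlier results of these data known.

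The samples were 4 wild-type male embryos of the C57bl6/J strain, named L29-3, L43-5, L46-8 and L49-3, with no transgene or treatment. All were collected at E8.5f, a step of the looping of the heart tube at embryonic day 8.5. The heart itself and the back were first taken away, and the heart field, between the headfolds and the second somite, was then cut at the midline, so that each embryo gave a left and a right library of polyadenylated RNA. The comparison asked which genes differ between the sides of 1 embryo, and it had 4 pairs.

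Hyaluronan is a long sugar chain that is spun into the extracellular space by hyaluronan synthases at the cell surface. Versican, a large proteoglycan, binds it through its head domain, link proteins clamp the pair together, and the resulting hydrated gel separates myocardium from endocardium in the heart tube as cardiac jelly. ADAMTS proteases cut versican, hyaluronidases cut hyaluronan, and CD44 and HMMR bind hyaluronan. Mouse embryos that lack *Has2* or versican fail to form this jelly and endocardial cushions. As the heart had been taken away, the values below describe these genes in the heart field and in whatever was left attached to it.

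The total count was between 1147446 and 3520753 reads per library, and embryo L49-3 had the lowest total on both sides. A count of 3 reads corresponded to between 0.852 and 2.61 CPM, the count scaled to the library total, which was taken as the limit of detection. All 10 markers of the second heart field, including *Isl1* and *Tbx1*, passed the filter on low values, and none passed the study's threshold between the sides (1.2-fold or more at an unadjusted p of 0.05 or less). Markers of other tissues were also present. The summed normalized count of 10 cardiomyocyte markers ranged from 886 to 6921 on the left and from 2440 to 6499 on the right, with *Nppa* at 1 read in all. That of 10 neural tube markers ranged from 391 to 949 on the left and from 524 to 1010 on the right, and *Pax3*, *Olig2*, *Dbx1* and *Hes5* were at 0 in some libraries. All 7 neural tube, all 9 cardiomyocyte and all 4 paraxial mesoderm markers tested had a lower estimate on the left, where 48.6% of all genes tested had a higher one. Of these, *Sox1* and *Pax6*, both of the neural tube, passed the threshold, with log2 fold changes of -0.98 and -0.83, where 1.42% of genes passed with the left lower. Single embryos were less uniform than these estimates. The left and right cardiomyocyte sums were 6921 and 6499 in L29-3, and 4537 and 2440 in L46-8. They ran the other way in L43-5 (3942 and 5606) and L49-3 (886 and 2780). For neural tube and paraxial mesoderm, the left sum exceeded the right one only in L29-3. Markers of 1 tissue may vary together, so their shared direction is not a set of independent results. In such bulk samples, fewer cells of a type and less RNA per cell cannot be told apart.

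The promoters of 9 of the 10 genes were found in RefSeq (assembly GRCm38.p6). The 250 bases before the start site are printed for *Vcan*, the member with the most reads, for *Adamts1* and *Adamts9*, the members with the largest left to right estimates, and for *Hmmr*, whose window held repeated motifs. Each is given 5′ to 3′ on the strand of the gene, and capitals mark matches to the GC box (GGGCGG), the CCAAT box (CCAAT) and the TATA box (TATAAA) on either strand. The windows lie at chr13:89742513-89742762 for *Vcan*, chr16:85803114-85803363 for *Adamts1*, chr6:92943535-92943784 for *Adamts9* and chr11:40733438-40733687 for *Hmmr*, all on the minus strand.
Vcan: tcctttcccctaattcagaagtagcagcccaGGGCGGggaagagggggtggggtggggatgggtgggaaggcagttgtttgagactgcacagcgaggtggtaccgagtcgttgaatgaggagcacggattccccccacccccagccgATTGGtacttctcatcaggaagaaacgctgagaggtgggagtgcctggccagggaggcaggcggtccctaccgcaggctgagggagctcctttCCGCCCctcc
Adamts1: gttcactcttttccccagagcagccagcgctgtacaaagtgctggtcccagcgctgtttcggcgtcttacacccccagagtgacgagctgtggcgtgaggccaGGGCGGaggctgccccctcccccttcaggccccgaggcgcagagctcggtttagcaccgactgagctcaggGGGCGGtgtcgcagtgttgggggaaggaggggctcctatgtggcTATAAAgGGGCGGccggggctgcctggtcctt
Adamts9: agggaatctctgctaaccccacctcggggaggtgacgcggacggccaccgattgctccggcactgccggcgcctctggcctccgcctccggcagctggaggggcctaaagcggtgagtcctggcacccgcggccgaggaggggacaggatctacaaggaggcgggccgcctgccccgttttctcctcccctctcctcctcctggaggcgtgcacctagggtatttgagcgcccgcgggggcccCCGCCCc
Hmmr: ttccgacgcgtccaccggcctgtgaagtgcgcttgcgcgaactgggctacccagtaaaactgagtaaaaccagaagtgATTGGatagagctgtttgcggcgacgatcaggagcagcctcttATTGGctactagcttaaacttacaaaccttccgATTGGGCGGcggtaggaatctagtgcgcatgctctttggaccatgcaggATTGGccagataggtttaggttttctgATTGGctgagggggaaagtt

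The *Hmmr* window held 5 CCAAT boxes, all on the opposite strand and so read as attgg, at 172, 129, 96, 47 and 20 bases before the start site. Only 0.213% of the 32817 promoters of the table held as many, whereas 33.8% held at least 1. Its GC box at 93 bases shared 2 bases with the CCAAT box at 96. The *Adamts1* window held 3 GC boxes at 147, 76 and 25 bases, a number reached by 8.47% of promoters, and a TATA box at 32 bases, a motif found in 12.4%. The *Adamts9* window held a single GC box at 7 bases and no TATA box. The *Vcan* window held GC boxes at 219 and 10 bases and a CCAAT box at 103 bases. The GC box was found in 32.7% of all promoters.

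Motifs of the FOXH1, T-box and SMAD factors were also searched for in these windows. The FOXH1 motif (AATCCAC, in 2.1% of all promoters on either strand) and the T-box motif (AGGTGT, 11.8%) had no match in the 9 windows. The SMAD motif (CAGAC, 42.2%) had 1 match in *Hapln1* and 1 in *Hyal1*. The cell cycle element CHR (TTTGAA, 16.0%) had no match either, also in *Hmmr*. These are matches of letters in a short window, and binding was not measured.

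The link protein and versican had the highest levels of the 10 genes. Levels were compared between genes as normalized counts per kilobase of exon, since long genes collect more reads. *Hapln1*, which encodes the link protein, stood at 116 ± 18 (SD, n = 8 libraries of 4 embryos) and *Vcan*, which encodes versican, at 109 ± 8.96. *Has2*, the synthase, followed at 69.2 ± 15.0, then *Hyal2* at 47.1 ± 4.24, *Hmmr* at 39.1 ± 5.48 and *Ugdh* at 24.1 ± 4.62. *Adamts1* at 17.0 ± 4.74, *Adamts9* at 9.13 ± 1.69, *Cd44* at 6.21 ± 2.14 and *Hyal1* at 1.68 ± 0.698 were the lowest.

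Most steps of this order were found in every library. *Hapln1* and *Vcan* were not separated, as *Hapln1* was higher in 6 of 8 libraries and the ratio of *Vcan* to *Hapln1* per kilobase ranged from 0.722 to 1.21. *Has2* exceeded *Hyal2*, and *Adamts9* exceeded *Cd44*, in 7 of 8 libraries, and the other neighbouring pairs kept their order in all 8. The length used mattered for some neighbours. Per kilobase of the longest transcript, *Vcan* (126) stood above *Hapln1* (119), *Hmmr* (54.5) above *Hyal2* (52.2), and *Adamts9* (17.2) came close to *Adamts1* (18.4). *Vcan* and *Cd44* each have 9 annotated transcripts, and counts per gene do not separate their isoforms.

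**Figure D1:**
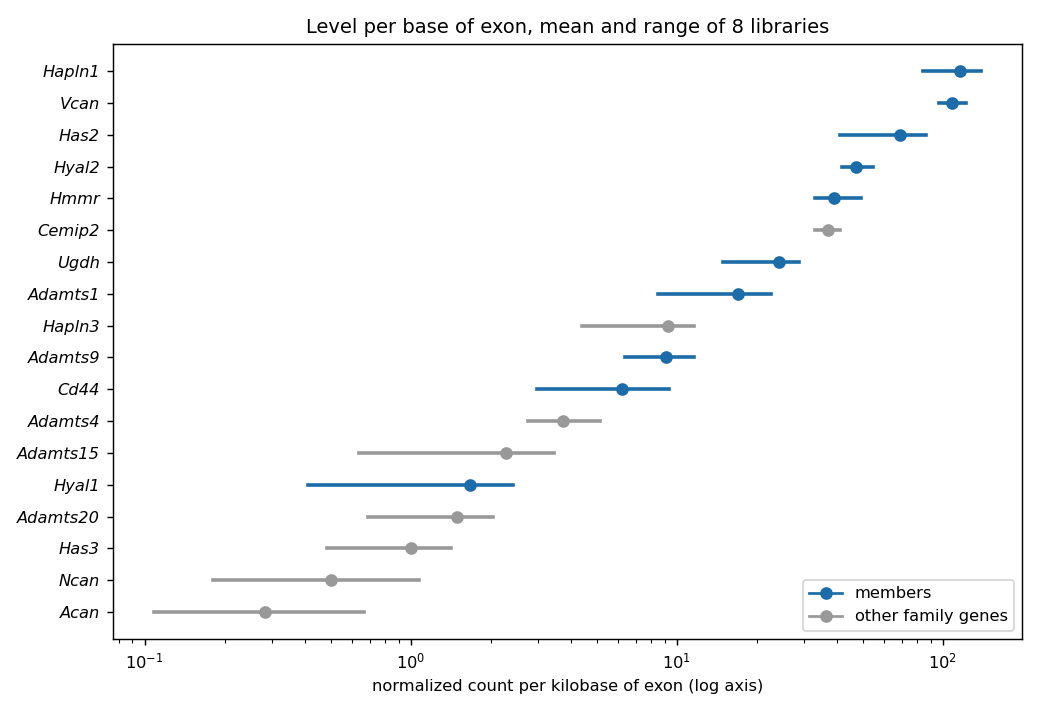
Level of each gene as normalized count per kilobase of exon, on a log axis, for the 10 genes (blue) and for other synthases, hyaluronidases, link proteins, lecticans and ADAMTS genes (grey). Points are means and lines the range of the 8 libraries, genes with a library at 0 are left out, and *Hapln1* (84.2 to 139) and *Vcan* (96.6 to 123) lie at the top with overlapping ranges.

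Among the synthases, the lecticans and the link proteins, a single gene held most of the signal. Among the 3 hyaluronan synthases, *Has2* made up between 97.6% and 99.2% of the summed level per kilobase in every library, with a median of 98.4%. *Has3* had 58 reads over the 8 libraries and *Has1* had 2, against 2521 for *Has2*. Of the lecticans, the family of versican, *Vcan* had 13940 reads, *Ncan* 28, *Acan* 16 and *Bcan* 2. Among the link proteins, *Hapln3* reached 9.25 per kilobase, *Hapln4* had 18 reads and *Hapln2* had none.

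The members of the synthesis side, *Has2* and *Ugdh*, did not pass the threshold, and *Has2* varied in direction between embryos. *Has2* (ENSMUSG00000022367, chr15:56665627-56694539, minus strand, GRCm38) encodes the synthase that makes most embryonic hyaluronan. For L29-3, L43-5, L46-8 and L49-3, its normalized counts were 342, 304, 275 and 353 in the left libraries. The right libraries had 173, 250, 367 and 281 in the same order of embryos. The left was higher in 3 of 4 embryos and the groups overlapped, because the right library of L46-8 was the highest of all 8 and that of L29-3 the lowest.

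The left libraries had a mean of 319 ± 35.8 and the right libraries one of 268 ± 80.0 for *Has2* (SD, n = 4). The log2 fold change of left against right was 0.27 (SE 0.161, 95% interval -0.08 to 0.62, edgeR, unadjusted p = 0.119, adjusted p = 0.987). The log2 ratios within the embryos were 0.98, 0.28, -0.42 and 0.32, in that order. The counting intervals of the extremes, 0.70 to 1.27 in L29-3 and -0.65 to -0.18 in L46-8, excluded 0 on opposite sides, with 422 and 140 reads in L29-3 and 338 and 289 in L46-8. The SD of this ratio over embryos was 0.575, and 10.8% of the genes tested had one as large, the median being 0.255.

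The *Has2* estimate rested on L29-3 and L46-8, which moved it in opposite directions. Without L46-8 it was 0.51 (SE 0.126, unadjusted p = 0.00165, adjusted p = 0.675), past the threshold, and without L29-3 it was 0.06 (unadjusted p = 0.681). The tissue content of the pairs also differed, and not only in L29-3 and L46-8. The summed normalized count of 3 juxta-cardiac field markers (*Tbx5*, *Mab21l2* and *Hand1*, none at 0) was 213 in the left and 354 in the right library of L29-3, and 425 and 203 in those of L46-8, so that it was higher on the side where *Has2* was lower. It was 285 and 280 in L43-5, and 48.0 and 51.5 in L49-3. Other tissues also differed. The neural tube sum was 653 and 524 in L29-3, and 474 and 712 in L46-8, higher on the side where *Has2* was higher. Paraxial mesoderm ran the same way in L29-3 and L46-8. In L43-5 and L49-3 both sums were higher on the right, where *Has2* was lower. Second heart field and surface ectoderm sums ran as the juxta-cardiac one did in L29-3 and L46-8. The part of tissue content in the *Has2* values was not tested. *Has2os*, a transcript on the opposite strand that shares 182 exon bases with *Has2*, had 11 reads.

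*Ugdh* (ENSMUSG00000029201, chr5:65413221-65435949, minus strand) encodes the dehydrogenase that makes the UDP-glucuronic acid from which hyaluronan and chondroitin sulfate are built. Its normalized count ranged from 101 to 189 on the left and from 136 to 194 on the right, with the lowest value in the left library of L49-3. The log2 fold change was -0.05 (SE 0.116, 95% interval -0.31 to 0.20, edgeR, unadjusted p = 0.653, adjusted p = 0.989), with 2 of 4 embryos higher on the left. The ratio of *Has2* to *Ugdh* per kilobase ranged from 1.42 in the right library of L29-3 to 5.59 in the left library of L49-3.

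Versican and its link protein, which form the scaffold with hyaluronan, gave no estimate past the threshold. *Vcan* (ENSMUSG00000021614, chr13:89655312-89742509, minus strand) had normalized counts of 1633, 1692, 1772 and 1437 on the left and of 1560, 1590, 1397 and 1471 on the right, for L29-3, L43-5, L46-8 and L49-3. The lowest and highest of the 8 libraries were both from L46-8, and the groups overlapped. The means were 1633 ± 143 and 1504 ± 87.7 (SD, n = 4), and the log2 fold change was 0.11 (SE 0.0675, 95% interval -0.03 to 0.26, edgeR, unadjusted p = 0.115, adjusted p = 0.987). The left was higher in 3 of 4 embryos, but the estimate was under the study's fold of 1.2.

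*Hapln1* (ENSMUSG00000021613, chr13:89539796-89611652, plus strand) lies 43659 bases from *Vcan* on chromosome 13, in the opposite orientation. Its normalized counts were 710, 634, 821 and 607 on the left and 747, 652, 789 and 497 on the right, in the same order of embryos. L46-8 was the highest and L49-3 the lowest on both sides. The log2 ratios of left to right were -0.07, -0.04, 0.05 and 0.28, and that of L49-3 had a counting interval of 0.07 to 0.51. The log2 fold change was 0.05 (SE 0.0716, 95% interval -0.11 to 0.20, edgeR, unadjusted p = 0.538, adjusted p = 0.987). Both bounds of this mean difference lay inside 1.2-fold.

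The versican proteases gave the only differences among the 10 genes that passed the study's threshold. *Adamts1* and *Adamts9* were both higher on the left, by 1.29 and 1.21 fold, and each was higher in 3 of 4 embryos. Thus 2 of 9 members tested passed, both higher on the left, where 3.05% of the 9744 genes tested passed in either direction, 1.63% higher on the left and 1.42% lower. After adjustment over all genes, 0 of 9 members passed at 0.05 in edgeR, where 1 of the 9744 genes did (0.0103%). At an unadjusted p under 0.05, 2 of 9 members passed in edgeR, where 4.36% of genes did. The left and right libraries did not overlap in 2.51% of genes, and overlapped in all 10 members. As the members were chosen with earlier results of these data known, these shares only describe them.

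*Adamts1* (ENSMUSG00000022893, chr16:85793827-85803113, minus strand) encodes a secreted protease that cleaves versican and acts in the remodelling of cardiac jelly during trabeculation. Its normalized counts were 105, 108, 120 and 74.3 on the left, and 109, 88.6, 71.1 and 44.9 on the right, for L29-3, L43-5, L46-8 and L49-3. The sides were near equal in L29-3, and the left was higher in the other three embryos, with log2 ratios of -0.06, 0.29, 0.73 and 0.71. Left libraries averaged 102 ± 19.3 and right libraries 78.4 ± 27.2 (SD, n = 4). The log2 fold change was 0.37 (SE 0.151, 95% interval 0.04 to 0.70, edgeR, unadjusted p = 0.0302, adjusted p = 0.987). L49-3 was the lowest embryo on both sides, with 27 reads in its right library.

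*Adamts9* (ENSMUSG00000030022, chr6:92772699-92943492, minus strand) encodes a related protease that also cleaves versican. Its normalized counts were 124, 175, 172 and 133 on the left and 136, 130, 133 and 96.4 on the right, for L29-3, L43-5, L46-8 and L49-3. The right libraries of the first 3 of these embryos lay close together, and the left libraries of L43-5 and L46-8 stood above them. The log2 ratios were -0.13, 0.42, 0.35 and 0.45, and the means were 151 ± 26.1 and 124 ± 18.6 (SD, n = 4). The log2 fold change was 0.28 (SE 0.120, 95% interval 0.01 to 0.54, edgeR, unadjusted p = 0.0400, adjusted p = 0.987). Transcripts on the opposite strand, *A730049H05Rik* and *Gm15737*, share 1381 and 424 exon bases with it and had 16 and 4 reads.

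Both calls were lost when L43-5, L46-8 or L49-3 was left out. Without L29-3, the embryo with no excess on the left, the log2 fold changes were 0.54 for *Adamts1* (unadjusted p = 0.00682) and 0.41 for *Adamts9* (unadjusted p = 0.00623). Without L43-5 they were 0.42 (unadjusted p = 0.0574) and 0.21 (unadjusted p = 0.182), without L46-8 0.25 (unadjusted p = 0.160) and 0.25 (unadjusted p = 0.107), and without L49-3 0.31 (unadjusted p = 0.0780) and 0.24 (unadjusted p = 0.106). Without the block for the embryo they were 0.36 (unadjusted p = 0.111) and 0.28 (unadjusted p = 0.0704), and with DESeq2 0.40 (unadjusted p = 0.0967) and 0.27 (unadjusted p = 0.155). The adjusted p of both was 0.949 or more in every setting tried.

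The number of members past the threshold is set here beside the share of all genes that passed it with the left higher. It was 2 of 9 with other size factors (1.64% of genes), with the library size alone (1.94%), with a minimum of 10 counts in every library (1.68%), with limma-voom (1.6%) and without L29-3 (1.85%). Without L46-8 it was 1, *Has2* (1.84%). It was 0 with DESeq2 (0.328%), without the block (1.36%), without L43-5 (1.75%) and without L49-3 (1.52%). Without the filter it was 3 of 10, with *Has2* added (1.52%).

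The left sum of normalized counts over 10 endothelial and endocardial markers exceeded the right sum in 4 of 4 embryos, from 705 to 915 on the left and from 527 to 864 on the right, with none of these markers at 0, and was lowest in L49-3 on both sides. The margin was small in L43-5 (806.5 and 794) and in L29-3 (889 and 863), and neither protease was higher on the left in L29-3. None of the 8 of these markers tested passed the threshold. Of the 8, 5 had a higher and 3 a lower estimate on the left, where 48.6% of all genes tested had a higher one. The part of endothelial content in the *Adamts1* and *Adamts9* values was not tested. Of the other versican-cleaving ADAMTS genes, *Adamts15* was tested, with a log2 fold change of 0.31 (edgeR, unadjusted p = 0.272). *Adamts4* (160 reads), *Adamts20* (122), *Adamts8* (21) and *Adamts5* (14) had too few reads for the test.

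**Figure D2:**
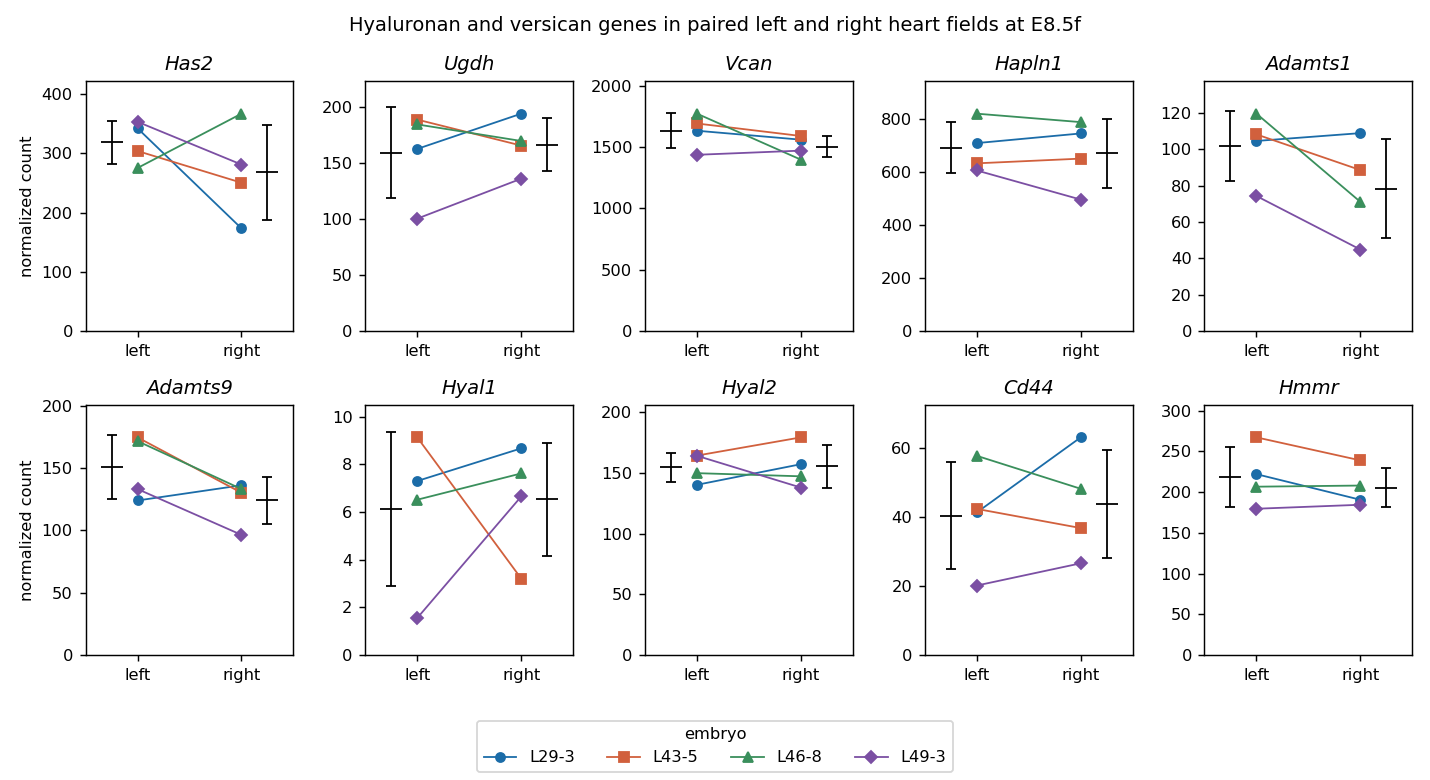
Normalized count of each of the 10 genes on the left and right, 1 panel a gene with axes from 0, where lines join the sides of 1 embryo and black bars are means ± SD (n = 4). The lines of *Has2* cross, those of *Adamts1* and *Adamts9* fall from left to right in 3 of 4 embryos, and all groups overlap.

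The hyaluronidases gave no estimate past the threshold. *Hyal2* (ENSMUSG00000010047, chr9:107567945-107572779, plus strand), which encodes a membrane-anchored enzyme that cuts long hyaluronan, had normalized counts between 140 and 164 on the left and between 138 and 179 on the right. The estimate was a log2 fold change of -0.03 (SE 0.103, 95% interval -0.25 to 0.20, edgeR, unadjusted p = 0.806, adjusted p = 0.996), with both bounds of the mean difference inside 1.2-fold. Left was higher in 2 of 4 embryos.

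*Hyal1* (ENSMUSG00000010051, chr9:107576927-107581710, plus strand), which encodes the lysosomal hyaluronidase, starts 4147 bases from the end of *Hyal2*. It had 55 reads in all, between 1 and 14 per library, and its normalized count was between 1.55 and 9.13, under the study's limit of 20 in every library. It shares 1920 exon bases with *Naa80* and 159 with *Hyal3* on the same strand, so its few reads are uncertain. *Hyal3* had 5 reads and *Cemip* 3, and *Hyal4* and *Spam1* had none. *Cemip2*, which encodes a surface hyaluronidase, was abundant, with 37.0 ± 3.06 normalized counts per kilobase (SD, n = 8), and its log2 fold change of 0.18 (SE 0.0784, edgeR, unadjusted p = 0.0408) was under the fold of 1.2.

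The hyaluronan receptors differed from each other in how they varied. *Cd44* (ENSMUSG00000005087, chr2:102811141-102901665, minus strand), the main surface receptor, had normalized counts of 41.3, 42.4, 57.8 and 20.1 on the left and 63.1, 36.8, 48.2 and 26.6 on the right, for L29-3, L43-5, L46-8 and L49-3. It was lowest in L49-3 on both sides. Its log2 fold change was -0.09 (SE 0.207, 95% interval -0.54 to 0.37, edgeR, unadjusted p = 0.685, adjusted p = 0.990). With between 13 and 71 reads per library, the interval holds a 1.2-fold difference in either direction.

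*Hmmr* (ENSMUSG00000020330, chr11:40701395-40733422, minus strand) encodes a hyaluronan-binding protein that also sits on the mitotic spindle. Its normalized count ranged from 180 to 267 on the left and from 185 to 239 on the right. Between the sides, the log2 fold change was 0.09 (SE 0.0875, 95% interval -0.10 to 0.28, edgeR, unadjusted p = 0.310, adjusted p = 0.987). Over the 8 libraries its log2 CPM ran with that of 10 mitosis genes, with Pearson's r from 0.15 for *Bub1* to 0.94 for *Cenpf* and a median of 0.79. The 3 genes most like it were *Rttn* (r = 0.980), *Snx6* (0.966) and *Aamp* (0.959). The 8 libraries come from 4 embryos and differ in depth, so these values only describe them.

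**Figure D3:**
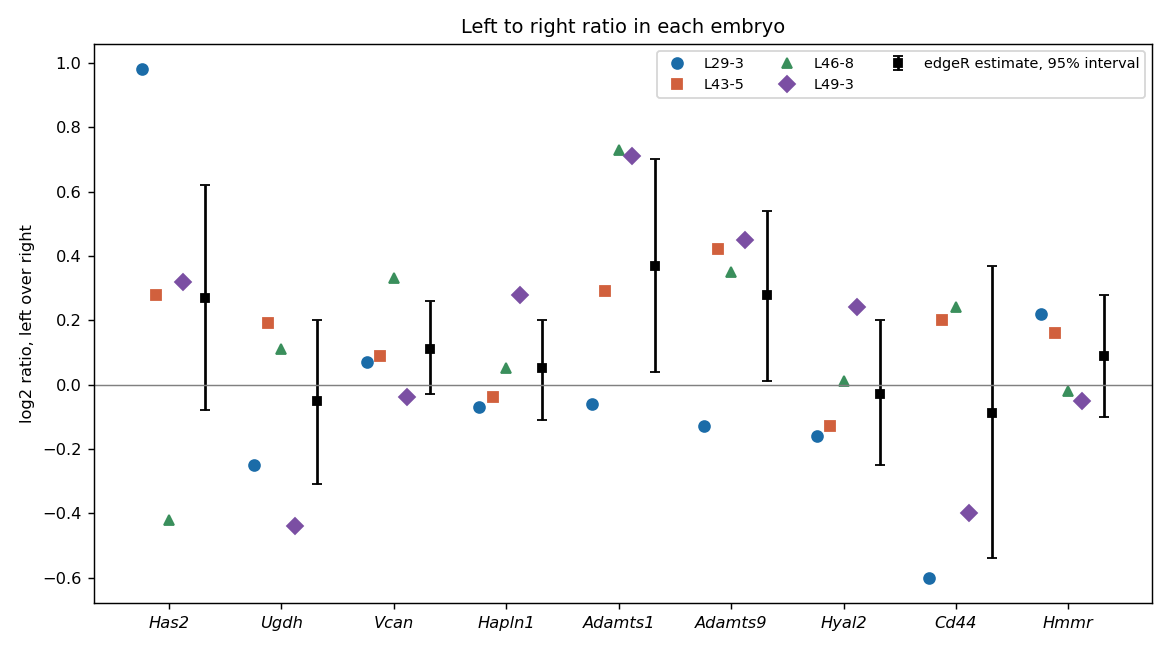
Log2 ratio of left to right for the 9 genes tested. Coloured points are the 4 embryos, and black points are edgeR estimates with 95% intervals. The embryos of *Has2* range from -0.42 to 0.98, those of *Vcan* from -0.04 to 0.33, and only the intervals of *Adamts1* and *Adamts9* lie above 0.

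Across the 9 genes tested, 6 had a log2 fold change above 0, where 48.6% of all genes tested did, and the median was 0.09, against 0.00 over all genes. No member had its left value above its right value in all 4 embryos, as 6.18% of genes did, and none had it below in all 4, as 6.2% did. With shares this small, finding none among 9 genes says little about them. For *Adamts1* and *Adamts9*, the mean log2 ratio within embryos (0.42 and 0.28) was slightly above its SD over embryos (0.376 and 0.274). For the other members tested, the SD exceeded the mean.

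The embryos also differed from each other, whatever the side. The mean of both sides was lowest in L49-3 in 7 of the 9 genes tested, and in *Hyal1*, where 33.2% of all genes tested were lowest in that embryo. The exceptions were *Has2*, lowest in L29-3, and *Hyal2*, lowest in L46-8. Among the 9 genes tested, *Cd44* varied the most, with a SD of the embryo means of 0.533 on the log2 scale, which 3.1% of genes tested reached. Its libraries of L49-3 had only 13 and 16 reads. *Adamts1* followed with 0.389 (7.59%), while *Hyal1*, not tested, had 0.455. *Vcan* was among the steadiest, with 0.0731, exceeded or matched by 83.6% of genes, and the median gene had 0.143. L49-3 also had the fewest reads, and its summed cardiomyocyte markers were 886 (left) and 2780 (right), against 6921 and 6499 in L29-3. The part of depth and tissue content in these differences was not tested.

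Correlations between members over the libraries were uneven. Pearson's r of log2 CPM was 0.93 for *Cd44* and *Ugdh*, 0.81 for *Adamts1* and *Adamts9*, 0.79 for *Cd44* and *Hapln1*, and 0.74 for *Vcan* and *Adamts1*, but 0.31 for *Vcan* and *Hapln1*, 0.29 for *Hmmr* and *Cd44*, and 0.15 for *Hmmr* and *Hapln1*. The r of *Has2* with the other members lay between -0.48 (*Cd44*) and 0.11 (*Hmmr*), and that of *Hyal2* between -0.26 (*Has2*) and 0.39 (*Adamts9*). The genes most like *Has2* were *Dusp11* (r = 0.957), *Fgfr1op* (0.953) and *Tor3a* (0.951), and those most like *Vcan* were *Fam160a2* (0.971), *Reck* (0.969) and *Adam19* (0.958). These values come from 8 libraries of 4 embryos, and the highest of 9744 genes was taken in each case.

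The 6 lists of matrix genes held 66 other symbols, of which 65 were found and 29 were tested. Of the 29, 14 had a higher and 15 a lower estimate on the left. Their median log2 fold change was -0.01, and 2 passed the threshold, both higher on the left, where 3.05% of all genes tested passed in either direction and 1.63% with the left higher. These were *Ugp2*, which encodes the enzyme that makes UDP-glucose, the substrate of UGDH, and *Stab1*, which encodes a scavenger receptor of the stabilin family.

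*Ugp2* had normalized counts of 94.0, 93.9, 79.0 and 83.6 on the left and 82.9, 67.8, 68.5 and 51.5 on the right, for L29-3, L43-5, L46-8 and L49-3. Left exceeded right in 4 of 4 embryos, with a log2 fold change of 0.37 (SE 0.139, edgeR, unadjusted p = 0.0216, adjusted p = 0.987). *Stab1* had 90.8, 89.3, 86.3 and 55.7 on the left and 79.2, 69.9, 64.7 and 44.9 on the right. It was also higher in 4 of 4 embryos, by 0.32 (SE 0.133, edgeR, unadjusted p = 0.0342, adjusted p = 0.987). The groups overlapped for both. *Ugp2* missed the threshold without L43-5 (unadjusted p = 0.101) and without L49-3 (unadjusted p = 0.0651), and *Stab1* without L29-3 (unadjusted p = 0.0506), L43-5 (unadjusted p = 0.115) or L46-8 (unadjusted p = 0.0933). With DESeq2 neither passed.

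Against the 3.05% of all genes tested that passed, 1 of 8 tested genes of hyaluronan synthesis passed (*Ugp2*), 0 of 4 of its degradation, 1 of 5 receptors and binding proteins (*Stab1*), and 0 of 5 lecticans, link proteins and versican partners. Of the versican-cleaving ADAMTS proteases 2 of 3 passed, which are the members *Adamts1* and *Adamts9*, and the median log2 fold change of the 3 was 0.31. Of 13 genes of chondroitin sulfate synthesis, which builds the side chains of versican, none passed, and the median was -0.12. Of these 13, 4 had a higher and 9 a lower estimate on the left, where 48.6% of all genes tested had a higher one. The lists, like the members, were chosen with earlier results known, so these counts are descriptions. *Tnc* and *Fbln1*, which encode matrix partners of versican, had log2 fold changes of 0.32 (edgeR, unadjusted p = 0.208) and -0.10 (unadjusted p = 0.209).

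**Figure D4:**
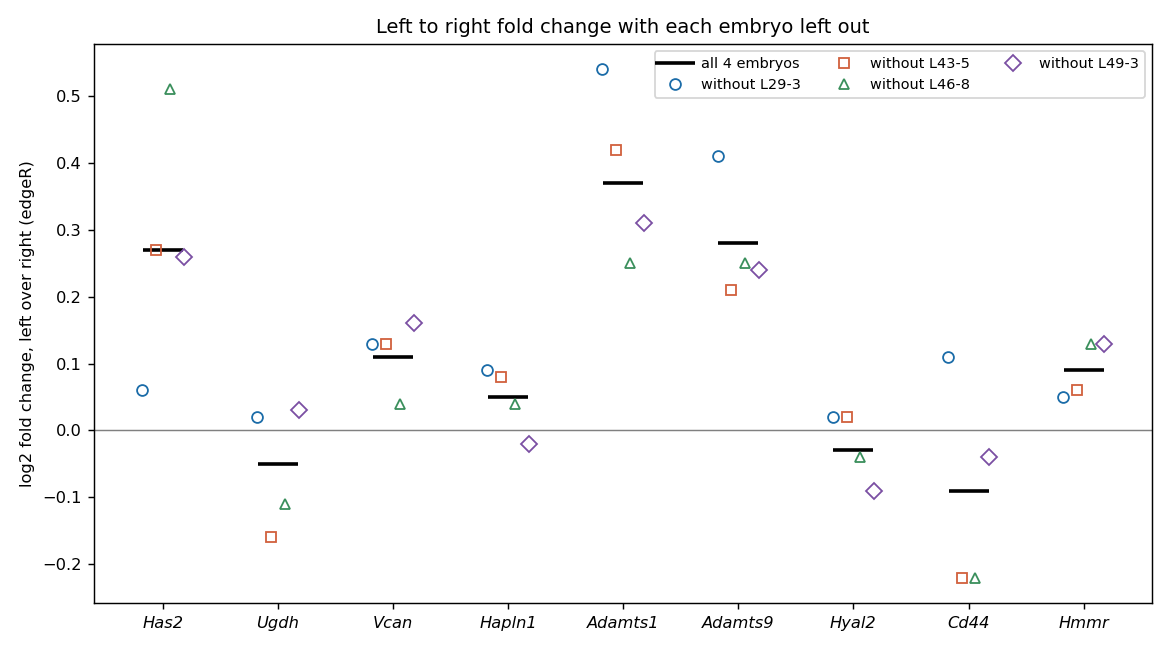
Log2 fold change of left against right for the genes tested, with all embryos and with each embryo left out in turn. *Has2* moves from 0.06 without L29-3 to 0.51 without L46-8, *Adamts1* from 0.25 to 0.54, and *Adamts9* from 0.21 to 0.41.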

How the data were processed

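Libraries were made from polyadenylated RNA of 8 samples, a left and a right heart field of each of 4 embryos, with groups and pairs taken from the labels. The deposited values are raw read counts per gene: the authors used HISAT2 with GRCm38, left out duplicates and counted with featureCounts from Subread. The paper gives the high number of duplicates as its reason for leaving them out. Without molecular identifiers, excluding duplicates can compress the counts of abundant genes. Among the members this concerns *Vcan* and *Hapln1* most, and the ratios of their levels to those of other members. The setting for strand in counting is not given in the sources used here. Symbols and exon lengths came from GENCODE vM21 (48144 identifiers with a symbol). Total counts ranged from 1147446 to 3520753.

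By the study's rule, genes reaching 20 DESeq2-normalized counts in 4 or more libraries were tested (9744). The sides were compared by the quasi-likelihood test of edgeR (edgeR 4.0.16, R 4.3.3), TMM normalization and the embryo as a block, with Benjamini-Hochberg adjustment over all genes tested. The study's threshold, 1.2-fold or more and an unadjusted p of 0.05 or less, was used. Levels are counts divided by DESeq2 size factors. Ratios within embryos are of log2 CPM with a pseudocount of 0.5, and their intervals are exact binomial (95%) and cover counting error only. An exact sign-flip permutation test of 4 pairs cannot go below p = 0.125, so none is given. The procedure was also run on simulated data, with planted changes larger than any member's estimate and scored on adjusted p. That run therefore does not bear on the calls of *Adamts1* and *Adamts9*.

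Embryos pair the samples, since both sides come from the same animal. Deviations of the sides from their group means correlated at 0.161, 0.19, -0.014 and 0.439 within L29-3, L43-5, L46-8 and L49-3. Between the sides of different embryos they correlated at -0.387 to 0.253, and only L49-3 lay above that range. No pair of libraries agreed within sampling noise (smallest chi-square per degree of freedom 1.91). The alternatives were other size factors, no filter, a minimum of 10 counts, DESeq2 1.42.0, limma-voom 3.58.1, no block, leaving out each embryo, and the longest transcript as length. All 10 members were named, with the genes of 6 matrix lists past the threshold and those of the synthase, hyaluronidase, lectican, link protein and ADAMTS families, and the 3 genes most correlated with *Has2*, *Vcan* and *Hmmr*. Markers were named beside a member. The members and lists were chosen with earlier results of these data known. One motif that was searched is not reported here. The motifs of the GC, CCAAT and TATA boxes and CHR were added after values were seen, as were the promoters printed and the pairs of members whose correlations are given.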

Additional observations from a re-analysis of the deposited data

Results flagged for a closer look

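Of 30 groups of 4 values examined, 2 held a value far from the other three, and chance alone flags about 1 in 20 groups. Both concerned *Adamts9*. Its normalized count on the right was 96.4 in L49-3, where the other embryos lay between 130 and 136. Its log2 ratio of left to right was -0.13 in L29-3, where the other embryos lay between 0.35 and 0.45.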

How the results depend on the processing

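Of 99 alternative estimates of the members' log2 fold changes, 81 kept their direction and side of the threshold, 10 fell short of it, 2 newly passed it and 6 changed sign. The number of members past the threshold, 2, was 0 with DESeq2 and 0 without the replicate block, ranged from 0 to 2 when each embryo was left out, and was 3 without the filter, *Has2* being the addition (log2 fold change 0.28, unadjusted p = 0.00245, edgeR adjusted p = 0.499). The other matrix genes past it, 2, were 4 without the filter, where *Fbln2* and *Tnc* were added, 0 with DESeq2, 1 without the replicate block, and 1 to 2 when each embryo was left out. The genes themselves changed. Without L29-3 they were *Ugp2* and *Tnc*. Without L43-5 the only one was *Chst15*, lower on the left (log2 fold change -0.51, edgeR, unadjusted p = 0.0467). Over all genes tested, 297 passed, against 687 without the filter and 59 with DESeq2. No member passed at an adjusted p of 0.05 under any of these alternatives. When each embryo was left out, estimates changed sign for *Cd44* (-0.22 to 0.11), *Hyal2* (-0.09 to 0.02), *Ugdh* (-0.16 to 0.03) and *Hapln1* (-0.02 to 0.09), none of which passed the threshold. Of 50 alternative levels per kilobase, 4 moved by more than 1 SD, all with the longest transcript. The causes were not tested. *Hyal1* and *Cd44* had the fewest reads of the members, 55 and 374 in all.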
